A study of Mus musculus with 2 samples.

Results

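The sites described here are stretches of open chromatin that lie 1 to 5 kb upstream of protein-coding genes, in sequence outside every annotated gene, in the mid-gestation mouse embryo. A site is a replicate 1 DNase-seq peak on chromosomes 1 to 19 that overlaps a replicate 2 peak by 1 bp or more. It lies outside all GENCODE M21 gene bodies, over 1 kb from every annotated transcription start site (TSS), and at most 5 kb upstream of the 5′-most TSS of a protein-coding gene. Of 203095 replicate 1 peaks on these chromosomes, 151215 (74.5%) overlapped a replicate 2 peak, and 3739 of these shared peaks (2.47%) met the whole rule. The series is a single group: B6NCrl embryos at embryonic day 10.5, whole, with males and females pooled, in 2 biological replicates and with no treatment or second genotype. DNase-seq reads the places where the enzyme DNase I cuts most easily, which are mostly regions cleared of nucleosomes. Since a whole embryo mixes many cell types, a weak site in most cells and a strong site in few cells cannot be told apart. With 1 group there is no contrast between conditions, and the values below are descriptions without a test.

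Upstream of a promoter, where RNA polymerase starts, a gene can carry proximal enhancers that are bound by factors of particular cell types, and such elements can drive expression of developmental genes in part of their pattern. The same stretch can also hold second promoters, binding sites of the insulator protein CTCF, which folds chromosomes into loops, or sites that serve another gene. An open site shows accessibility only, and a gene is named below for its position next to the site.

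The sites' sequences are given first for the strongest site with a CTCF motif, the strongest at a gene with a closed promoter, and sites at genes whose upstream elements are textbook examples. Each is the 150 bp of the replicate 1 peak on the plus strand of mm10, read from the RefSeq GRCm38.p6 sequence of the same chromosomes. Capitals mark exact matches, on either strand, to 27 short motifs of transcription factors that were searched.
Tmem40, chr6:115764336-115764485, CTCF with an overlapping ZIC match, then TFAP2 and SOX: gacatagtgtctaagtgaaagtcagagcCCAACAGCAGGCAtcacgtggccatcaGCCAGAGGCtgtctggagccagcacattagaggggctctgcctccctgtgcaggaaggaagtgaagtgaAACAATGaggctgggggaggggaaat
Gfy, chr7:45182316-45182465, NFY and POU: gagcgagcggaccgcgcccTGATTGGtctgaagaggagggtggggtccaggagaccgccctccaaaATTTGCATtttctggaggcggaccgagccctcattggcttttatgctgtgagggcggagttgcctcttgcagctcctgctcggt
Pax3, chr1:78200296-78200445, E-box: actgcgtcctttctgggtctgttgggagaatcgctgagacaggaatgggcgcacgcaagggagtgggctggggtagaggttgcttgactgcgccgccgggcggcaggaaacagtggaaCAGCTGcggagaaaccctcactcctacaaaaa
Msx1, chr5:37826816-37826965, MEIS, TFAP2 and TCF/LEF: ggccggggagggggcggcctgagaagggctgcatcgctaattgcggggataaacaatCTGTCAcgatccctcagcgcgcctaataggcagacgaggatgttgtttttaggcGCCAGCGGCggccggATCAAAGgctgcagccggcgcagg
Neurog1, chr13:56256756-56256905, MEIS at both marks: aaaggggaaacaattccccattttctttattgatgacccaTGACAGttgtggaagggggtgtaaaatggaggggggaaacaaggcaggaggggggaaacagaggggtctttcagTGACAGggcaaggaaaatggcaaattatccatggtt
Foxa2, chr2:148048536-148048685, MEIS: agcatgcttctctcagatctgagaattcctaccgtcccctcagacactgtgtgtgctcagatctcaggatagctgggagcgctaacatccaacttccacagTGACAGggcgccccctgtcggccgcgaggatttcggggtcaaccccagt
The strongest sites of Tal1, Neurog2 and Hoxb1 held none of the 27 motifs and are not printed. A match is only a match of letters, and a site without one can still be bound.

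The label of these sites as upstream of promoters was checked against the data. Of the 3739 sites, 2947 (78.8%) lay upstream of a gene with a peak within 1 kb of that same 5′-most TSS in both replicates, called an open promoter here. Another 157 (4.20%) lay upstream of a gene with such a peak in 1 replicate, and 635 (17.0%) upstream of a gene with none in either. Among all 20807 protein-coding genes, 66.6% had an open promoter. RefSeq, a second gene annotation, placed a transcript start within 1 kb of 475 sites (12.7%), against 4.43% of all shared peaks over 1 kb from a GENCODE TSS. In 328 of the 475 (69.1%) that start belonged to the same gene, and in 51 (10.7%) it rested on a curated transcript. Some of these sites are therefore annotated as promoters elsewhere.

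The authors' peak score, a whole number whose definition is not given in the sources used here, is called strength. The sites had a median strength of 52 in replicate 1 (quartiles 36 and 73) and 67 in replicate 2 (quartiles 49 and 88). They ranged from 12 to 138 in replicate 1 and from 9 to 142 in replicate 2. The other 47508 shared intergenic peaks over 1 kb from a TSS had medians of 44 and 54. Shared peaks in gene bodies had medians of 45 and 56, and shared peaks within 1 kb of a TSS had 64 and 81. The upstream sites thus sat between other intergenic peaks and TSS peaks in each replicate, with quartile ranges that overlapped both. Mean strength over both replicates was 100 or more in 321 sites (8.59%), in 3.75% of other intergenic peaks and in 28.5% of TSS peaks.

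**Figure D1:**
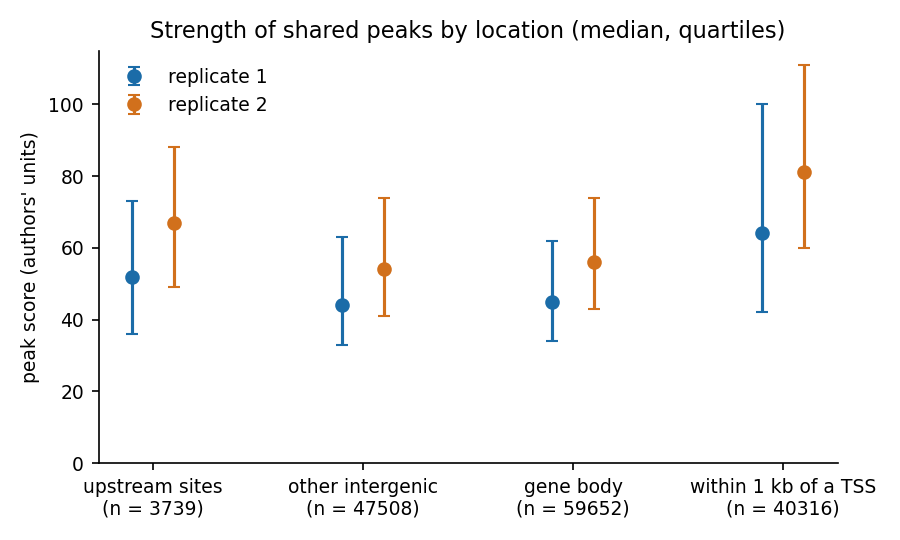
Peak score (vertical axis, authors' units) of shared peaks by location, in replicate 1 (blue) and replicate 2 (orange). Points are medians and bars run from the lower to the upper quartile; the upstream sites, at 52 and 67, lie above other intergenic peaks at 44 and 54 and below TSS peaks at 64 and 81.

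The replicates ranked the sites alike, with a Spearman correlation of 0.911 across the 3739 sites, which are regions of the same embryos and not independent samples. Replicate 2 scored higher at 3395 sites, replicate 1 at 284, and 60 were equal. On the log2 scale replicate 2 was 0.31 above replicate 1 at the median site (SD over sites 0.29), beside 0.26 over all shared peaks. The replicates differ in how many peaks were called: 4789 replicate 1 peaks and 6320 replicate 2 peaks met the location rule alone. Of these, 1050 (21.9%) and 2590 (41.0%) overlapped no peak of the other replicate, and they were weak, with medians of 27 and 37.

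Base composition and surroundings varied with strength. When the sites were divided by mean strength into 5 classes of nearly equal size, the median ratio of observed to expected CpG, the dinucleotide that is dense in CpG islands, went from 0.188 in the weakest class to 0.417 in the strongest. Median GC content went from 48.7% to 54.7%, and the share at a gene with an open promoter from 69.5% to 83.7%. The share within 1 kb of a RefSeq start was 17.8% in the strongest class and between 10.6% and 13.0% in the other 4. Median distance from the TSS did not follow strength, being 2443 bp in the weakest and 2546 bp in the strongest class.

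Of the 10 strongest sites, all lay upstream of a gene with an open promoter. At Tle2, a corepressor of the Groucho family, the site 2776 bp upstream (chr10:81571636-81571785) scored 134 and 142 (138 ± 5.66, SD, n = 2), and its 2 other sites scored 126 and 130, and 94 and 102. Id3, an inhibitor of bHLH transcription factors, had a site of 133 and 142 at 2912 bp (chr4:136140436-136140585) with 2 weaker ones beside it, at 42 and 58 and at 46 and 61. The site of Kdm6b, a demethylase of the repressive mark on lysine 27 of histone H3, scored 136 in both replicates at 3901 bp, above its promoter at 68 and 89. Cpeb4, a regulator of mRNA translation, also had a site (133 and 138) above its promoter (41 and 68), and a RefSeq start of Cpeb4 itself lay within 1 kb of that site. Further ones were at Mtfp1 (134 and 139), Rabepk (138 and 135), the RNA-binding protein gene Igf2bp3 (137 and 135), Fbrs (136 and 135) and the potassium channel gene Kcnn1 (136 and 135). RefSeq starts of their own gene lay within 1 kb of the sites at Kdm6b, Cpeb4, Fbrs and Kcnn1. The replicates differed by at most 9 at any of these 10 sites.

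Across the 2947 sites at open promoters, the strength of a site was nearly unrelated to that of its own promoter, with Spearman correlations of 0.0366 in replicate 1 and 0.0588 in replicate 2. The median site had a mean strength of 61 and the median promoter 109.5. Still, 445 of these sites (15.1%) were stronger than the strongest peak within 1 kb of the TSS. Sites at genes with no promoter peak were weaker, with medians of 45 and 54, against 53 and 69 at open promoters.

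A gene without a promoter peak could still have a strong site upstream. The strongest of the 635 lay 2747 bp upstream of Gfy, an olfactory signalling regulator of the Golgi, and scored 121 and 124 (122.5 ± 2.12, SD, n = 2). It was 1159 bp from the 3′ end of the next gene on its other side. Sost, which encodes the Wnt inhibitor sclerostin of bone cells, had a site of 116 and 127 at 1881 bp (chr11:101968896-101969045), 2098 bp from the start of the next gene. Cd300lg (116 and 124), Upk3bl (115 and 124) and Sgca, the alpha-sarcoglycan gene of muscle (112 and 120), completed the 5 strongest. The next gene on the other side of these 5 sites was 1159 to 11830 bp away, and which gene a site acts on was not tested.

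Over the whole set, the nearest gene on the other side of the site pointed its 3′ end at it in 2232 cases (59.7%) and its start in 1507 (40.3%). In 224 of the latter, that start lay within 5 kb. Of all sites, 161 were upstream of at least 2 protein-coding genes at once, a count that shares sites with the 224. Another site was overlapped by 145, leaving 3666 separate stretches.

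Density was highest close to the promoter. Counted by the distance of the peak centre and per megabase in which a site could lie, there were 98.5 sites per Mb at 1 to 2 kb, 70.2 at 2 to 3 kb, 64.3 at 3 to 4 kb and 61.5 at 4 to 5 kb. The first of these was 1.60 times the last. Beyond the zone, intergenic shared peaks went on at 56.3 per Mb at 5 to 6 kb and 52.0 per Mb at 9 to 10 kb. The rest of the intergenic genome held 39.1 per Mb, assembly gaps included, against 73.5 in the whole zone.

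Density fell with distance at genes with an open promoter. There it went from 137 per Mb at 1 to 2 kb to 74.9 at 4 to 5 kb, a ratio of 1.83. At genes with no promoter peak it did not fall, at 33.5 and 37.9 per Mb, a ratio of 0.886. Over 1 to 5 kb the densities were 94.4 and 35.8 per Mb. The share of sites within 1 kb of a RefSeq start was 21.8% at 1 to 2 kb and 6.73% at 4 to 5 kb. With every peak near a RefSeq start left out, an alternative added after seeing the data, the ratio over all genes was 1.47.

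**Figure D2:**
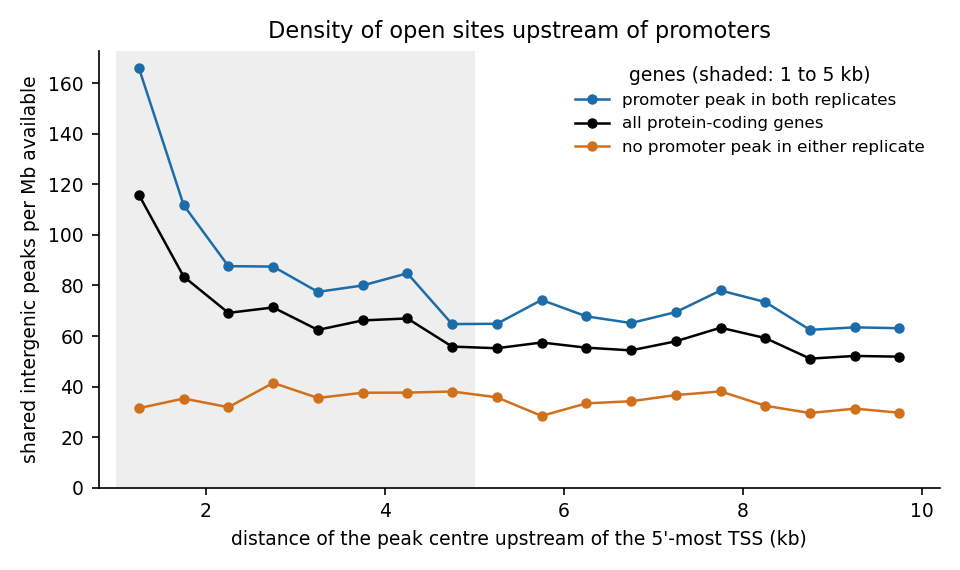
Shared intergenic peaks per Mb of available sequence (vertical axis) against the distance of the peak centre upstream of the 5′-most TSS (horizontal axis, kb, bins of 500 bp), for genes with a promoter peak in both replicates (blue), all genes (black) and genes with none (orange). The blue line falls over the shaded 1 to 5 kb, from 137 to 74.9 per Mb between its first and last kilobase, while the orange line stays near 35.8 per Mb.

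Strength did not change over the same distances. Median strength was 50 and 68 in the 789 sites at 1000 to 1500 bp from the TSS, and 51 and 66.5 in the 324 sites at 4500 to 5000 bp. Just outside the limits, by the nearest edge, 1456 shared peaks at 500 to 1000 bp had medians of 48 and 69, and 323 at 5000 to 5500 bp had 52 and 65.

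All sites lay in a hotspot, the broader region of enriched cutting that the authors called separately. In replicate 1 the hotspot of 294 sites (7.86%) reached within 1 kb of the TSS, and in replicate 2 that of 714 (19.1%). Median hotspot width was 296 bp in replicate 1 and 397 bp in replicate 2. The sites so joined in replicate 1 were close to the TSS, at a median of 1129 bp against 2765 bp for the others, and stronger, with a median mean strength of 81 against 57.

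An upstream site was found at 2909 of the 20807 protein-coding genes (14.0%). The share depends on room: 15216 genes had at least 150 bp of upstream sequence where a site could lie, and 19.1% of those had one. It was 16.1% of the 13864 genes with an open promoter (23.4% of those with room) and 8.96% of the 6183 genes with no promoter peak (10.8% of those with room). One site was the rule, at 2228 genes, with 2 at 476, 3 at 138 and 4 or more at 67. By chromosome the share ran from 10.3% on chromosome 7 to 17.7% on chromosome 4.

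A few genes had many sites. Tnrc18 had 9 sites, Pdgfra 8, and Dbx1, Six2 and Ebf2 had 7 each. The 9 sites of Tnrc18 lay in a single 6721 bp hotspot of replicate 1 that ran on to the promoter, and the strongest, 4094 bp upstream, scored 126 and 127. RefSeq placed starts of Tnrc18 within 1 kb of several of them. Pdgfra encodes a receptor of platelet-derived growth factor in mesenchyme and neural crest. Its strongest site, 3747 bp upstream (chr5:75148396-75148545), scored 97 and 107, and its promoter 93 and 116. Its weakest pair, overlapping peaks 4247 and 4287 bp upstream, scored 24 and 26 in replicate 1 and both 44 in replicate 2.

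Dbx1, Six2 and Ebf2 had sites that were weak in replicate 1 and moderate in replicate 2. At Dbx1, a homeodomain factor of spinal interneuron progenitors, the 7 sites had medians of 35 and 78. Six2, known for nephron progenitors and facial mesenchyme, had 35 and 69, and Ebf2, a factor of early neurons and mesenchyme, had 33 and 66. At these 3 genes every site scored higher in replicate 2, by more than the median site. Tnrc18 (medians 76 and 86) and Pdgfra (72.5 and 88.5) differed less. Among the highest ratios were a shared site of Mllt10 and Skida1 (21 and 66, log2 ratio 1.65) and one of Gm10837 (23 and 72). At the other end were Baz1a (35 and 21) and a pair of overlapping sites at AW822073 (68 and 41, and 58 and 38).

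**Figure D3:**
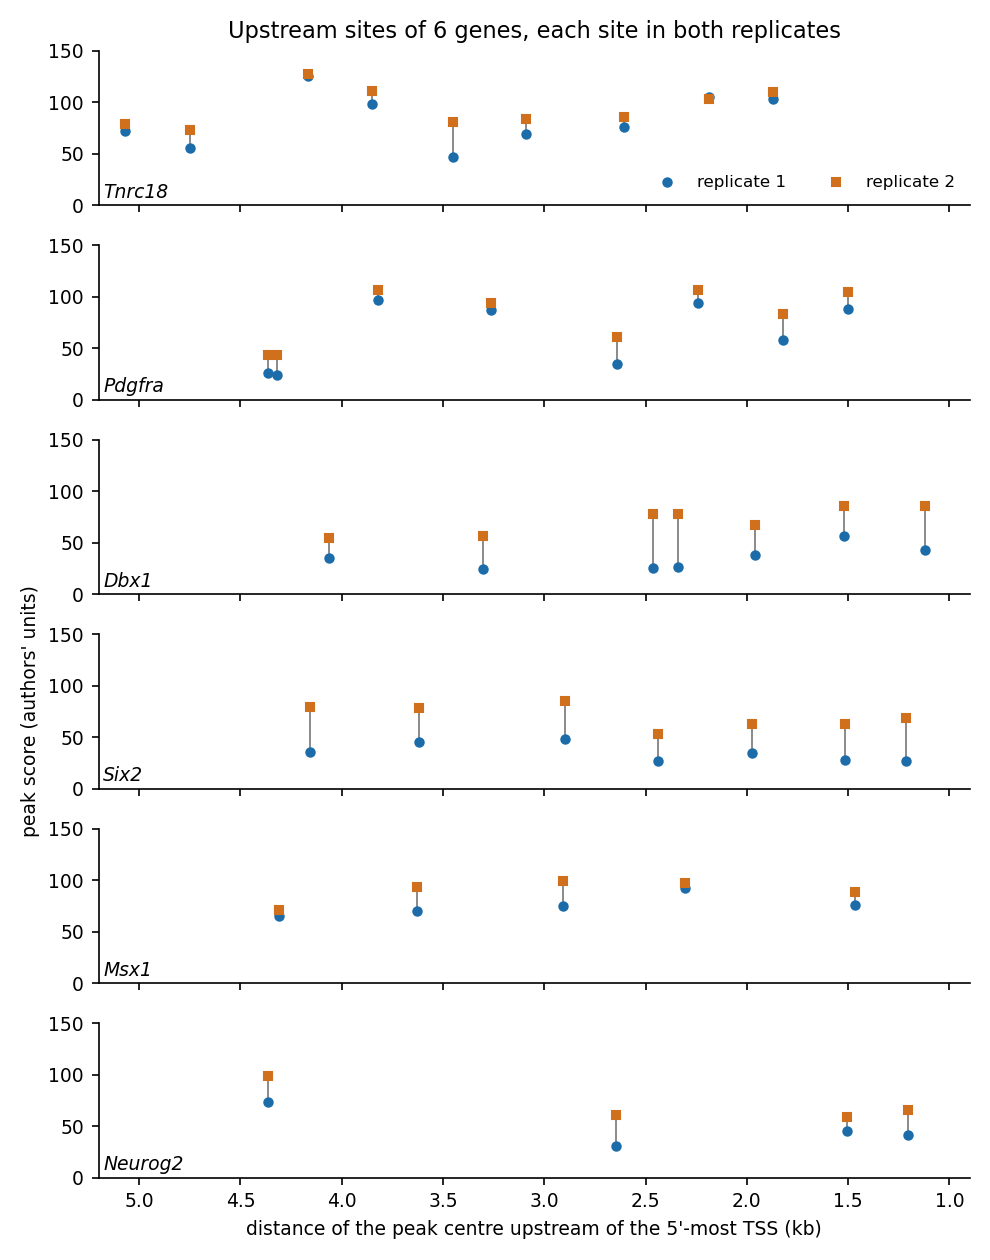
Peak score (vertical axes, authors' units) of each upstream site in replicate 1 (blue circles) and replicate 2 (orange squares), joined by a line, against the distance of the peak centre from the 5′-most TSS (horizontal axis, kb, TSS to the right). The sites of Dbx1 and Six2 are all higher in replicate 2, with medians of 35 and 78, and 35 and 69. Those of Pdgfra, Msx1 and Neurog2 are also all higher in replicate 2, in most cases by less. So are those of Tnrc18, except the site of 105 and 103.

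Genes were grouped in 18 lists of known function, and the share with a site was read against the 14.0% of all genes. Neural crest and craniofacial genes had the highest share, 13 of 22 (59.1%), or 72.2% of the 18 with room. Endothelial genes followed with 10 of 21 (47.6%), then genes with textbook upstream elements with 7 of 16 (43.8%), signalling ligands and antagonists with 14 of 33 (42.4%) and limb bud genes with 9 of 22 (40.9%). Somite and muscle genes had 8 of 22 (36.4%), early neuronal genes 9 of 26 (34.6%) and neural progenitor genes 10 of 30 (33.3%). The order was different among genes with room: 62.5% for neural progenitor, 60% for limb bud, 55.6% for endothelial and 52.9% for early neuronal genes. It was 50% for textbook genes, 48.3% for ligands and antagonists and 42.1% for somite and muscle genes, against 19.1% for all genes with room. Heart genes had 3 of 24 (12.5%) and housekeeping genes 4 of 24 (16.7%), both near the share of all genes. Among those with room the shares were 20% and 23.5%. Per Mb of available sequence, however, their 8 and 7 sites came to 155 and 142, against 73.5 in the whole zone. Lists are short, some genes stand in several, and the members of the lists were chosen with earlier results of these data known.

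**Figure D4:**
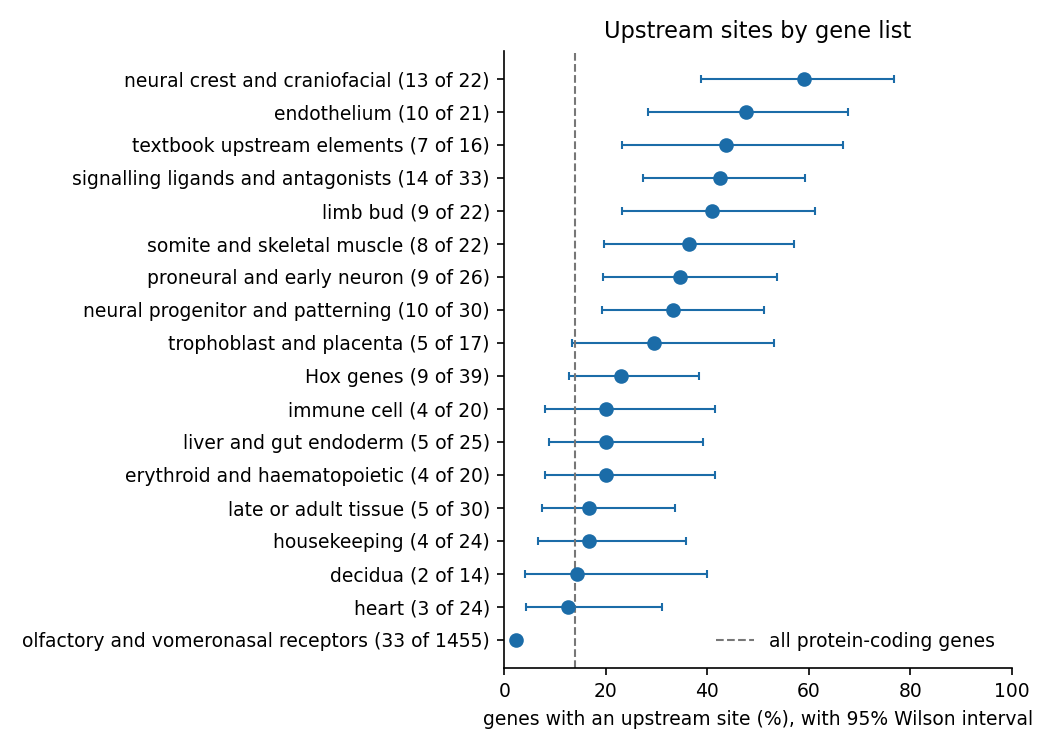
Percent of genes with at least 1 upstream site in each of 18 lists (points) with 95% Wilson intervals (bars), and the share of all protein-coding genes, 14.0% (dashed line). The intervals of neural crest (59.1%), endothelium (47.6%), ligands, limb, somite, early neuronal, neural progenitor and textbook genes lie above the line, that of the olfactory and vomeronasal receptors (2.27%) lies below it, and the other intervals span it. The intervals hold counting error only. Some genes stand in several lists, and the lists were chosen with earlier results of these data known, so their place against the line is not a test.

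The 13 neural crest genes covered transcription factors of several families. Prrx1, a homeodomain factor of facial and limb mesenchyme, had 2 sites, the stronger of 98 and 106, 1166 bp upstream (chr1:163314876-163315025), beside a promoter of 101 and 106. Msx2 had 92 and 111 at 2902 bp, and Dlx5, which patterns the lower jaw, 89 and 109 at 2951 bp. Dlx2 (94 and 101), the bHLH factor gene Twist1 (96 and 99) and Snai2 (81 and 90), a repressor active in cells that leave the neural tube, each had 1 site. Tfap2b had 2 sites, the stronger at 76 and 94. Foxd3 (56 and 84) and Ets1 (33 and 51) were weaker. Ednrb, Mitf and Tfap2a, with 4000 bp where a site could lie, Erbb3, with 3813 bp, and Snai1, with 1850 bp, had none. Dlx1, Dlx6, Sox10 and Sox9 had 0 bp of such sequence, so no site could be counted there. The sites of the list had medians of 72 and 90, above the 52 and 67 of all sites.

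Prrx1 and Msx2 also stand in the limb list. Meis1, a homeodomain partner of Hox proteins that marks the proximal limb, had the strongest site of the limb list, 127 and 131 at 1451 bp (chr11:19020436-19020585). That site lay within 1 kb of a RefSeq start of Meis1 and in a hotspot of 3652 bp that reached the promoter. Among ligands, Gdf11, a signal that patterns the trunk to tail transition, had 108 and 117 at 3858 bp, a site with a CTCF match near a RefSeq start of Cd63. Fgf17 had 81 and 102 at 3368 bp without a promoter peak in either replicate. The Notch ligand gene Dll1 had 6 sites, the strongest at 85 and 95. Fgf8, a signal of limb ridge and midbrain boundary, had 2, at 67 and 85 and at 44 and 62, and Wnt1 had 1 (51 and 64). Bmp4 and Wnt5a had none in 4000 bp, and Shh and Nog had 0 bp where a site could be counted.

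Neural genes were divided. Hes5, a Notch target that keeps progenitors from differentiating, had a site of 125 and 127 at 2438 bp (chr4:154958336-154958485), as strong as its promoter at 122 and 130. Hes1 had 93 and 106 at its strongest of 3, and Pax7 88 and 99. Ebf3 had 6 sites, with 105 and 116 at the strongest. Neurod4 had 70 and 84. In the median site of the progenitor, early neuronal and somite lists, replicate 2 exceeded replicate 1 by log2 ratios of 0.51, 0.54 and 0.54, against 0.31 over all sites.

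Somite genes with strong sites were Tcf15 (104 and 112), Meox1 (101 and 108) and Hes7 (90 and 106), all active in the paraxial mesoderm that forms vertebrae and muscle. Myf5, the first of the muscle determination genes to be used in somites, had 1 site (43 and 61). In the heart list only Hand1 (60 and 82), Isl1 (60 and 82) and the myosin gene Myh7 (59 and 72) had sites. Endothelial sites included Nos3, the nitric oxide synthase of vessels, with 92 and 115 at 3725 bp and no promoter peak in either replicate. Sox18 followed with 94 and 98, at a site also upstream of Tcea2, and then Fli1 with 85 and 81. Erg (80 and 68) and Etv2 (57 and 53), like that site of Fli1, scored higher in replicate 1, as 284 of all sites did. Liver and gut endoderm had 5 of 25 (20%), or 35.7% of the 14 with room. Among them were Foxa2 (94 and 106), Foxa1 (77 and 91), Krt18 (62 and 67) and Cdh1 (63 and 55).

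Among blood genes 4 of 20 had a site, or 21.1% of the 19 with room, with Tal1 (72 and 89) the strongest. Runx1, a factor of definitive blood stem cells, had 43 and 56 without a peak at its 5′-most TSS, and Epb42, of the red cell membrane, had 37 and 45. The globin genes Hba-x, Hbb-bh1 and Hbb-y, which primitive red cells express, had none. Of the 39 Hox genes 9 had a site (23.1%), or 47.4% of the 19 with room. The strongest were at Hoxb8 (102 and 111), Hoxb7 (105 and 107) and Hoxd12 (98 and 102). The first and second of these lay near RefSeq starts of the same genes, and Hoxd12 had no promoter peak.

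The remaining lists were of housekeeping genes and of tissues that are late, maternal or outside the embryo. Housekeeping sites included those of the ribosomal protein gene Rplp0 (77 and 98) and of Ppia (75 and 93). Late or adult genes had a site in 5 of 30 (16.7%), or 23.8% of the 21 with room, and 16.7% of the 30 had an open promoter. Cpa1, a digestive enzyme gene of the pancreas, had 106 in both replicates without a promoter peak, the myelin gene Mbp had 75 and 80, and Muc2 had 31 in both. Immune genes had 4 of 20 (20%), or 26.7% of the 15 with room. Rag1 (78 and 83, a site also upstream of B230118H07Rik) and Cd79b (50 and 60) were among them. Trophoblast genes had 5 of 17 (29.4%), or 35.7% of the 14 with room. Decidual genes had 2 of 14 (14.3%), or 20% of the 10 with room. The strongest trophoblast sites were at Tfap2c (79 and 99), Hand1 (60 and 82) and Cited2 (58 and 48), genes that the embryo itself also uses. The other trophoblast genes with a site, Gcm1 (41 and 50) and Elf5 (34 and 37), had no promoter peak in either replicate. The decidual sites were at Bmp2 (72 and 93), likewise used in the embryo, and Prl8a2 (47 and 49). Of 1455 olfactory and vomeronasal receptor genes, 33 (2.27%) had a site, and 1.79% had an open promoter. Their sites had medians of 36 and 40.5, with Olfr94 (94 and 109, with a CTCF match), Olfr221 (80 and 96) and Olfr71 (70 and 84) the strongest.

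Of 16 genes whose upstream elements are textbook examples, 7 had a site. Msx1, of cranial mesenchyme and limb, had 5, and the strongest, 2233 bp upstream, scored 92 and 97 beside a promoter of 124 and 126. The other 4 scored 76 and 89, 75 and 99, 70 and 93, and 65 and 71. Neurog2, a proneural bHLH factor, had 4, the strongest at 74 and 99, 4290 bp upstream, and the other 3 between 31 and 45 in replicate 1. Pax3, of dorsal neural tube and neural crest, had 2, at 72 and 92 and at 69 and 84. Foxa2, of floor plate and endoderm, had 2 (94 and 106, and 59 and 74), both above its promoter at 40 and 58. Hoxb1 had 71 and 77 and 65 and 74. Tal1, a regulator of blood formation, had 72 and 89 at 3541 bp, and Neurog1 65 and 78 at 4593 bp.

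The other 9 had none, for different reasons. No shared peak of any kind lay in the 1 to 5 kb zone of Myod1, Nkx2-5, Afp, Myog or Tek. Pax6 had 7 shared peaks there and Sox2 had 4, all inside an annotated gene body and so outside the rule. Gata2 had 1, within 1 kb of another TSS. In all, 1507 shared peaks over 1 kb from every TSS lay in an upstream zone but in a gene body, and 2312 in a zone but within 1 kb of some TSS.

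CTCF matches were more frequent in the sites than in other intergenic peaks, in TSS peaks or in closed upstream sequence. The CTCF core (CCANNAG directly followed by NNGGCA) was in 349 sites, or 9.33% (95% Wilson interval 8.44 to 10.3%, counting error only). It was in 5.79% of other intergenic peaks, in 2.09% of TSS peaks and in 0.785% of 316733 peak-free 150 bp windows of the same upstream zones. Sites with the core had medians of 62 and 76, and sites without it 51 and 66. The core read along the gene's strand in 173 sites and along the opposite strand in 176.

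The share of sites with the CTCF core varied with distance. The share was 7.06% at 1 to 2 kb, 9.25% at 2 to 3 kb, 9.39% at 3 to 4 kb and 13.5% at 4 to 5 kb. Over the same distances the density of all sites fell from 98.5 to 61.5 per Mb, so a higher share does not mean more CTCF sites. In shared intergenic peaks beyond the zone, from 5 to 10 kb, the share varied between 7.91% and 12.2% by kilobase, without a further rise. It was 12.6% of the 1240 sites in intergenic intervals under 10 kb, 8.73% of the 1914 in intervals of 10 to 50 kb and 4.44% of the 585 in longer ones. It was 11.7% at genes with no promoter peak and 8.89% at open promoters. By strength it was 6.83%, 5.08%, 10.4%, 12.7% and 11.6% from the weakest class to the strongest.

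SP/KLF, ETS, NRF1, TFAP2 and NFY matches were more frequent in TSS peaks than in the sites, and in the sites than in other intergenic peaks. Base composition had the same order, and the shares were not adjusted for it. Median GC content was 58.7% in TSS peaks, 51.3% in the sites, 49.3% in other intergenic peaks and 43.3% in peak-free windows. The median ratio of observed to expected CpG was 0.601, 0.262, 0.226 and 0.140 in that order. CRE (TGACGTCA) and YY1 (AAGATGGC) were also most frequent in TSS peaks, at 1.38% and 1.31%. Sites and other intergenic peaks differed little in CRE, at 0.294% and 0.284%, and for YY1 the sites were lower, at 0.883% against 0.958%. The SP/KLF motif GGGGCGGG was in 3.10% of sites, 1.47% of other intergenic peaks, 12.4% of TSS peaks and 0.396% of peak-free windows. The ETS motif CCGGAAGT was in 0.535% of sites, against 0.267%, 2.51% and 0.0887%. NRF1 was in 0.562%, against 0.124%, 3.29% and 0.0313%. TFAP2 (GCCNNNGGC) was in 6.18%, against 5.19%, 12.4% and 2.08%, and NFY (CCAATCA) in 2.83%, against 2.37%, 4.58% and 1.84%. NRF1 and ETS rest on 21 and 20 sites.

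The E-box, homeobox, HOX-PBX, MEIS, nuclear receptor and TEAD motifs were less frequent in the sites than in other intergenic peaks. The E-box CAGCTG, bound by bHLH factors of muscle and neurons, was in 12.9% of sites and 17.2% of other intergenic peaks, with 5.78% of peak-free windows. The E-box CATCTG was in 15.6% and 20.3%, with 11.6% of peak-free windows. The homeobox core TAATTA was in 2.92% and 4.52%, the HOX-PBX motif TGATTNAT in 2.59% and 4.44%, and the MEIS motif TGACAG in 11.4% and 15.2%. TAATTA was not above its 4.46% in peak-free windows. Nor were the GATA (2.12% of windows), POU (1.06%), FOX (2.06%), TCF/LEF (2.69%) and YY1 (1.27%) motifs above theirs. These windows are richer in A and T, with a median GC content of 43.3% against 51.3% in the sites. The nuclear receptor half-site AGGTCA was in 13.5% and 16.5%, and TEAD (ACATTCC) in 2.92% and 3.91%. ZIC (CAGCAGG) differed little, at 9.39% and 9.26%, and so did the motif of REST, a repressor of neuronal genes (TTCAGCACC), at 0.562% and 0.499%. Of the blood and AP-1 factors, the GATA motif AGATAAG was in 1.42% of sites and 1.55% of other intergenic peaks, and the AP-1 motif TGANTCA in 4.55% and 5.78%. The SOX motif AACAATG was in 2.78% and 3.17%, and the POU motif ATGCAAAT in 1.04% and 1.11%. The FOX motif TGTTTAC was in 1.82% and 2.32%. The motif of TCF/LEF factors, which act in Wnt signalling, is ATCAAAG and was in 2.33% and 3.46%. RFX was in 0.508% and 0.585%. GLI (GACCACCCA), MEF2 (CTAAAAATA) and NFI were in 7, 4 and 2 sites, too few to compare. All were searched on both strands. The ZIC letters overlap some CTCF matches, as in the Tmem40 site. In all, 10 of the 27 motifs had a higher share in the sites than in other intergenic peaks.

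**Figure D5:**
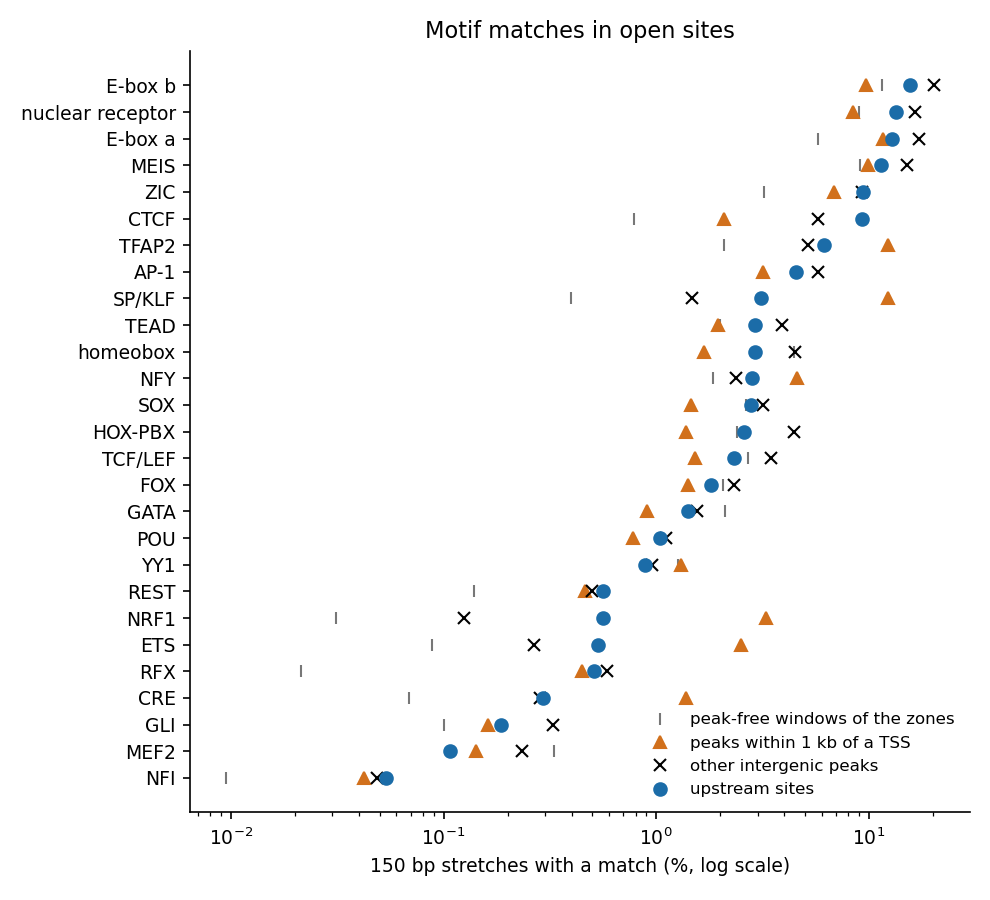
Percent of 150 bp stretches with a match to each of 27 motifs (horizontal axis, log scale) in the upstream sites (blue circles), other intergenic shared peaks (crosses), shared peaks within 1 kb of a TSS (orange triangles) and peak-free windows of the same zones (ticks). E-box a is CAGCTG and E-box b is CATCTG; The CTCF share in the sites, 9.33%, is above those in other intergenic peaks (5.79%) and TSS peaks (2.09%).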

How the data were processed

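The peak and hotspot lists of both DNase-seq replicates, biological replicates per the labels, were used as 1 group. Per text deposited beside the data, the authors called each replicate separately from mm10 alignments, with tools and versions not given in the sources used here. The deposited peaks are 150 bp wide and carry a score from 2 to 150 (strength here), and the deposited hotspots the −log10 of a q-value, with 100 for the smallest; neither was rescaled. Library depth is unknown. Repeated peaks (28 and 47 lines) were dropped.

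Sites were chosen with GENCODE M21, distances running from the peak's nearest edge and, for density, from its centre. Replicate 2 strength is that of the peak with the largest overlap. Density counts positions where a 150 bp peak would meet the rule. Motifs were exact matches on both strands. RefSeq starts and sequence came from GRCm38.p6. Python 3.11.15, pandas 2.3.3 and numpy 2.4.6 were used, and the choice of sites, density and motif search were tested on simulated data.

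Named genes were the 10 strongest sites, the 5 genes with most sites (Ebf2, level with the lowest of them, is added), the 5 strongest sites without a promoter peak, the 3 strongest genes of each list, all 16 textbook genes and the extremes of the replicate ratio. Other genes of the lists were named after their values were seen. The members, lists and motifs were chosen with earlier results of these data known. Of 18 trophoblast symbols 17 matched. Some genes that this rule names are not reported here.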

Additional observations from a re-analysis of the deposited data

How the results depend on the processing

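No paired analysis was possible because the series holds a single group. The score has no stated definition and depth is unknown, so 2 replicates give only their spread.

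The number of sites (3739) was 2384 with the stronger 50% of peaks, 2327 over 2000 bp from any TSS, 2230 up to 3 kb and 6654 up to 10 kb upstream. The share of genes with a site was 9.56%, 9.16%, 8.93% and 22.7% in that order, and 15.7% with protein-coding gene bodies only. With the stronger 50% the median mean strength was 74.5 (59 in all) and the open promoter share 82.3%; over 2000 bp that share was 75.7%. The share of sites whose hotspot reached the promoter (7.86%) was 18.3% with replicate 2 peaks as the base and 0.774% over 2000 bp. Each replicate alone gave 4789 to 6320 sites, 16.7 to 18.7% of genes, a median of 45 to 51, an open promoter share of 80.1 to 84.4%, a density ratio of 1.65 to 1.98 and a hotspot share of 7.20 to 16.7%. Beyond the narrower or wider choice of peaks and sequence that each setting makes, the cause was not tested. The density ratio could not be computed at 3 kb or over 2000 bp. Over the 13 alternatives, motifs higher in sites (10) numbered 8, with protein-coding gene bodies only, to 11, and lists above the share of all genes (16) numbered 14 to 17; with 1 replicate alone they numbered 9 to 11 and 14 to 17. Of the 74 named genes, 69 had a site with the stronger 50%, 56 over 2000 bp, 63 up to 3 kb and 61 over 1 kb from RefSeq starts too, the last chosen after seeing the data.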

Other observations

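On the X chromosome, outside the set described above, 95 peaks met the same location rule, upstream of 83 of 948 protein-coding genes (8.76%, against 14.0% on chromosomes 1 to 19). They were weaker, with medians of 35 and 48 against 52 and 67, in embryos pooled from males and females. On the Y chromosome none met it, at 183 genes.

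Sites that scored at least 2 times as high in replicate 2 as in replicate 1, a class chosen after seeing the data, numbered 104 (2.78%). Their medians were 26 and 62. Their hotspots had a median width of 179 bp in replicate 1 and 2005.5 bp in replicate 2, against 296 and 397 bp for all sites. Of the 104, 14 (13.5%) lay upstream of a gene in the lists of neural progenitor, early neuronal, neural crest, somite, heart, limb, signalling or Hox genes, against 3.42% of all sites. Dbx1 and Ebf2 each had 4 such sites, and Six2, Chrm4 and Gm10837 had 3. Of the 284 sites that scored higher in replicate 1, none was upstream of a gene in those lists, and the median width of their hotspots was 309.5 bp in each replicate. That count depends on the lists taken, which left out endothelial, endoderm and trophoblast genes. There, sites of Fli1 (85 and 81), Erg (80 and 68), Cdh1 (63 and 55) and Cited2 (58 and 48) scored higher in replicate 1. The median site of each of these left-out lists still scored higher in replicate 2.

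RefSeq transcripts covered 772 of the upstream sites (20.6%) and 13.8% of other intergenic shared peaks. Sites that were neither inside a RefSeq transcript nor within 1 kb of a RefSeq start had a median mean strength of 59, the same as all sites, against 48 in such other intergenic peaks.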
